A study of Arabidopsis thaliana with 4 samples.

Results

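AT2G23110 and AT2G23120 are a tandem pair of Arabidopsis thaliana genes for small proteins related to late embryogenesis abundant (LEA) proteins, and no other locus stood between them in the RefSeq gene table. The pair is 2 genes of the 7208 loci that could be tested, and each has 1 probe set, 267263_at for AT2G23110 and 267261_at for AT2G23120. The genes were chosen by their signal in the wild type and by their difference between the wild type and flc-3, so these values are given below as a description, without a test. LEA proteins are hydrophilic and largely unfolded in solution, accumulate as seeds dry, and many are also made in vegetative tissue under drought, cold or abscisic acid. They are sorted into groups by sequence, and these genes belong to the group called LEA_6 or PvLEA18 type, after a bean protein. AT2G33690 is the remaining member of that group in Arabidopsis.

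Transcripts were measured on 4 Affymetrix ATH1 arrays, a 1-colour expression array, with 2 arrays for each of 2 genotypes in the Col-0 background. The wild type is labelled FRI and FLC. The mutant is labelled flc-3, a knockout of FLC (AT5G10140), the MADS-box repressor of flowering, and its titles write FRI in lower case, so its FRI allele cannot be told from the labels. Whole seedlings of both genotypes were grown on agar with 3% sucrose, first under continuous illumination for 6 days. They then had 4 days at 22 °C with a night of 12 h, before a move to continuous illumination at 27 °C. The light after the move was 25 µmol per square metre per second. Each array carried equal amounts of RNA pooled from 24, 30, 36 and 42 h after that move, so each value is an average over a day and holds no time course. A level below means the average over all organs of the seedling, in which fewer cells that express a gene and less RNA per cell cannot be told apart.

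The arrays had median signals of 47.1 to 48.5, and log2 signals of tested probe sets correlated at r = 0.966 to 0.988 between arrays. The ratio of 3′ to 5′ signal of the GAPDH control, a measure of RNA integrity, was 1.02 to 1.18. A control for 25S ribosomal RNA gave 1426 in flc-3 replicate 1 and 45.7 to 134.6 on the other arrays, so values without that array are given beside the pair. Markers of both main parts of a seedling were bright, PYK10 of the root at 2720 to 3780 and RCA, Rubisco activase of green tissue, at 2170 to 2960. Nothing in the labels says that the replicates came from separate cultures, so the spread between them may be technical, and 2 arrays per genotype limit the precision of every value.

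AT2G23110 was dim in the wild type and several-fold higher in flc-3. The wild-type arrays read 58.6 and 42, close to the median of an array, and the flc-3 arrays read 264 and 247. Both flc-3 arrays lay far above both wild-type arrays, and the spread within a genotype was small beside that step. By any margin, 20.2% of tested probe sets had both flc-3 arrays above both wild-type arrays, and in 43% the groups did not overlap in either direction. The mean signal went from 50.3 ± 11.7 (SD, n = 2) to 255 ± 12.5 (SD, n = 2). On the log2(signal + 1) scale, where the added 1 shrinks changes at low signal, the difference was 2.34 ± 0.16 (limma SE), or 5.06-fold. On that scale the lowest flc-3 array stood 2.05 above the highest wild-type array.

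AT2G23120, the next locus, was already bright in the wild type and, as a ratio, stood little higher in flc-3. The wild-type arrays read 557 and 437, and the flc-3 arrays read 708 and 644. The groups did not overlap, but the gap between them was smaller than the spread of the wild-type arrays: on the log2(signal + 1) scale the lowest flc-3 array exceeded the highest wild-type array by 0.21, and the wild-type arrays lay 0.35 apart. The mean signal went from 497 ± 85 (SD, n = 2) to 676 ± 44.6 (SD, n = 2). The log2 difference was 0.45 ± 0.14 (limma SE), or 1.37-fold. Leaving out wild type replicate 2 gave 0.28, and leaving out wild type replicate 1 gave 0.63. So the size of this difference turns on which wild-type array is kept.

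**Figure D1:**
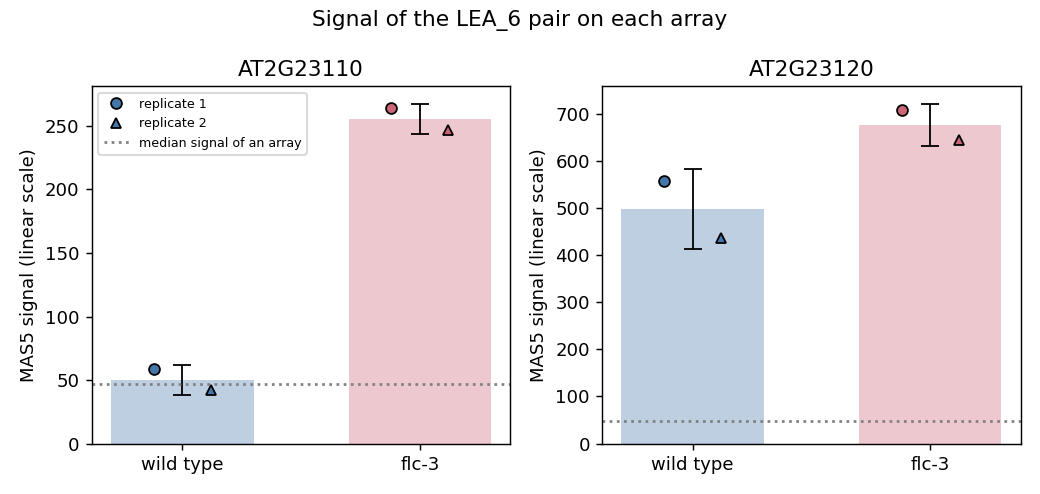
MAS5 signal on a linear scale for AT2G23110 and AT2G23120 in wild type and flc-3. Bars are means of 2 arrays, error bars are SD, circles and triangles are replicates 1 and 2, and the dotted line is the median signal of an array. AT2G23110 goes from 58.6 and 42 to 264 and 247, and AT2G23120 from 557 and 437 to 708 and 644.

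The basal signals placed the genes in different parts of the range of the array. Of the 22746 probe sets other than controls, 55.6% and 47% were at or below AT2G23110 on the wild-type arrays, and 89% and 88.1% on the flc-3 arrays. For AT2G23120 those shares were 95.6% and 94% on the wild-type arrays and 96.9% and 96.2% on the flc-3 arrays. These ranks describe brightness only. Probe sets bind their targets with unequal strength, so the signals do not say which of the genes has more transcript.

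The log2 difference of AT2G23110 exceeded that of AT2G23120 by 1.89. In the arrays numbered 1 the differences were 2.15 for AT2G23110 and 0.34 for AT2G23120, and in the arrays numbered 2 they were 2.53 and 0.56. The excess was thus 1.81 and 1.97. Without flc-3 replicate 1, the array with the high ribosomal signal, the differences were 2.29 and 0.38 and the excess was 1.91. On the linear scale the mean signal rose by 205 for AT2G23110 and by 179 for AT2G23120, so the excess is one of ratio. No test is given, since the differences chose the pair. Neighbouring genes of related sequence can share probe targets, and whether the signal of one probe set holds transcript of the other gene was not tested.

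Over all tested probe sets, limma called 239 of 13648 at an adjusted p under 0.05, which is 1.75%, with 1.44% higher and 0.308% lower in flc-3. AT2G23110 was among them and AT2G23120 was not, and nothing is read from this count of 1 of 2, since this contrast chose the genes. AT2G23120 was among the called probe sets when wild type replicate 1 was left out. Counted from the largest rise down, with falls last, AT2G23110 stood at place 19 and AT2G23120 at place 471 of the 13648. The median difference of all tested probe sets was -0.012.

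The replicate differences within a genotype were not used to choose the pair, and in them the genes moved alike. Wild type replicate 1 exceeded replicate 2 by 0.47 on the log2 scale for AT2G23110 and by 0.35 for AT2G23120. In flc-3, replicate 1 exceeded replicate 2 by 0.10 for AT2G23110 and by 0.13 for AT2G23120. The log2 ratio of the genes therefore changed by 0.12 between the wild-type arrays and by -0.03 between the flc-3 arrays. Its SD within a genotype was 0.06, against 0.24 for AT2G23110 and 0.19 for AT2G23120 alone. With 1 array on each side these are descriptions without a test.

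Most LEA genes shared that order of the replicates. Among the 24 tested LEA genes outside the pair, 20 were higher by any amount in wild type replicate 1, 20 in flc-3 replicate 1, and 17 in both. Their median replicate difference was 0.29 in the wild type and 0.21 in flc-3, against -0.007 and 0.013 over all tested probe sets. The share of all tested probe sets with this order is not given here. The LEA list was compiled with results of these arrays known. A larger gap than that of AT2G23110 between the wild-type arrays was seen in 7.69% of tested probe sets, and a larger gap than that of AT2G23120 in 16.8%. Between the flc-3 arrays the shares were 57.4% and 45.2%. The wild-type arrays thus set most of the spread of the pair.

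**Figure D2:**
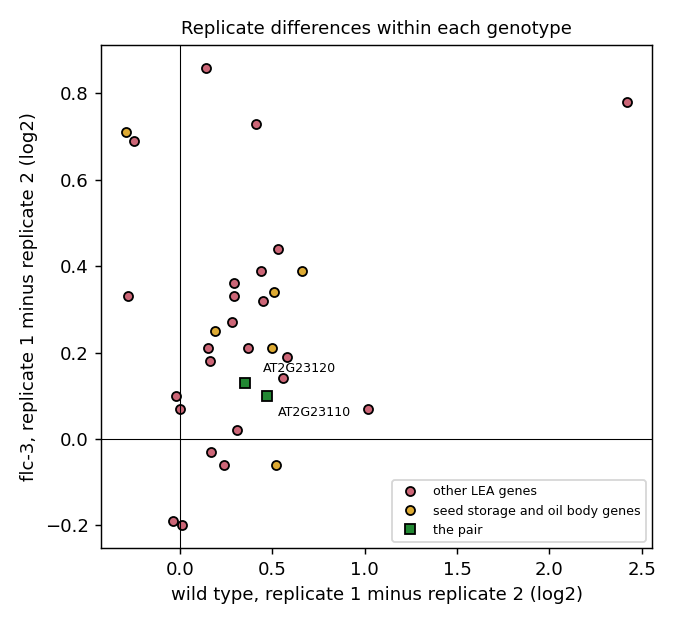
Log2 difference of replicate 1 minus replicate 2 in the wild type (horizontal) and in flc-3 (vertical), 1 point per tested gene. Squares mark the pair, at 0.47 and 0.10 for AT2G23110 and at 0.35 and 0.13 for AT2G23120. Of the 24 other LEA genes, 17 lie above 0 on both axes.

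AT2G33690, the other LEA_6 gene, lay below the filter on dim probe sets and was not tested. The wild-type arrays gave 0.672 and 0.295 and the flc-3 arrays 0.544 and 3.59. All 4 values were far below the 25th percentile of their arrays, which was 13.2 to 14.1, and the groups overlapped. No difference is read from these values, so the LEA_6 group is represented by the pair.

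The differences of the pair were set beside those of all LEA genes. AT2G23110 lay within the range of the LEA genes that rose, and AT2G23120 within that of those that did not pass. This placing is a description, since this contrast chose the pair. Of 51 LEA genes listed, 35 had a probe set named for that gene alone and 26 were bright enough to be tested. Outside the pair, 16 of 24 LEA genes rose and none fell (limma adjusted p under 0.05 over all tested probe sets), against 1.91% called among all 7208 tested loci. The list was compiled with results of these arrays known, so this share is not independent evidence. The filter took the mean of all 4 arrays, so a gene dim in the wild type could enter through its flc-3 signal. AT3G22490, at 21.7 and 3.24 in the wild type, entered in this way, which raises the share. The same holds for AT5G44310, at 32.2 and 23.3 in the wild type, and for AT4G39130, at 30.2 and 24.6. With no filter, 14 of 33 LEA genes outside the pair passed, against 121 of 22746 probe sets. Counted from the largest rise down, AT2G23110 came at place 5 and AT2G23120 at place 20 of the 26. The 16 rises ran from 1.26 to 3.24 on the log2 scale, so AT2G23110 fell within their range and AT2G23120 below it. The 8 LEA genes outside the pair that did not pass had differences of -0.14 to 0.80, a range that holds AT2G23120. Another 9 named LEA genes were too dim to be tested, with differences of -0.07 to 2.04.

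Among the other LEA groups, all 3 LEA_1 genes rose, LEA4-5 the most at 2.43 ± 0.19 (SE), AtLEA4-1 by 2.17 and LEA18 by 1.59. Of 11 tested LEA_4 genes 9 rose, up to 2.58 for AT5G44310, which passed the filter through its flc-3 signals. The cold-regulated plastid proteins of that group did not pass, COR15A at 0.80 (limma adjusted p = 0.155) and COR15B at 0.14. COR15A passed without flc-3 replicate 2 (limma adjusted p = 0.000804).

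The dehydrins, LEA proteins that bind membranes and other proteins as cells dry, held both kinds. LEA (AT2G21490) rose by 2.91 and AT4G39130 by 1.40, the latter losing its call without flc-3 replicate 1 (limma adjusted p = 0.0519) or with dim probe sets kept (0.0501). COR47 and LTI30, dehydrins made in leaves in the cold, had differences of 0.32 and 0.34, close to that of AT2G23120, and AT1G54410 had -0.14. None of these 3 passed.

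The smaller groups were thinly covered. DI21, the 1 tested LEA_3 gene, rose by 1.26. AT2G46140 and AT2G44060 of LEA_2 had differences of 0.23 and -0.08. AT3G22490, a seed maturation protein, rose by 3.24, with wild-type signals as far apart as 21.7 and 3.24, and lost its call without flc-3 replicate 1 (limma adjusted p = 0.0749) and under cyclic loess (0.0544) or quantile normalization (0.0687). It also lost it with dim probe sets kept (limma adjusted p = 0.198), without the intensity trend (0.0897) and under robust eBayes (0.191). M17 of the AtM group had a difference of 0.77 (limma adjusted p = 0.248), and passed without wild type replicate 1 (limma adjusted p = 0.000207), which moved it to 1.27. No LEA_5 gene could be matched to a probe set here.

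**Figure D3:**
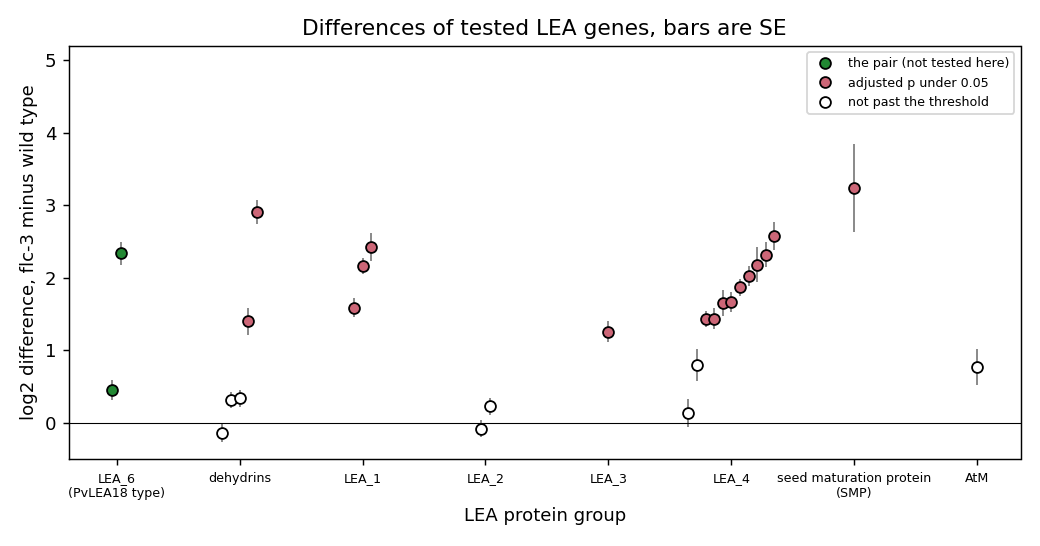
Log2 difference between flc-3 and wild type for the 26 tested LEA genes, by protein group, with limma SE as bars. Filled red points passed an adjusted p of 0.05, open points did not, and green points are the pair. AT2G23110 at 2.34 lies among the red points, and AT2G23120 at 0.45 lies among the open ones.

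Markers of seed tissue were higher in the same arrays. Of 19 listed seed storage and oil body genes 8 were named, and all 6 that could be tested rose, by 1.03 to 3.44. Among all 7208 tested loci 1.91% were called. This list too was compiled with results of these arrays known, so the count is not independent evidence. PAP85, a vicilin-type storage protein, rose the most, and OLEO3, an oil body coat protein, rose by 2.29. The cupin gene AT4G36700 rose by 2.38 and the oleosin gene AT3G01570 by 2.02. AT2G28490, also of the cupins, rose by 1.21 and the oleosin gene AT2G25890 by 1.03, and these 2 lost their calls when dim probe sets were kept (limma adjusted p = 0.0501 and 0.0861). The signals of the 8 named genes summed to 1056 and 759.6 on the wild-type arrays and to 3151 and 2725 in flc-3, and AT1G03890, a cruciferin-type gene of that list, stayed at 2.64 to 11.8. EEL, a bZIP transcription factor of seed maturation, rose by 1.63 and lost its call without flc-3 replicate 1 (limma adjusted p = 0.0996) or with dim probe sets kept (0.113). OLEO3, at 17.2 and 21.2 in the wild type, and EEL, at 27 and 16.4, passed the filter through their flc-3 signals. The part of seed-derived tissue in the difference of the pair was not tested.

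Of 6 listed root markers and 8 listed green tissue markers, 3 each had a named probe set and were tested. None of these 6 tested markers passed in limma, and 1, EXPA7, had an unadjusted p under 0.05. The root hair expansins EXPA7 and EXPA18 had differences of 0.69 (limma adjusted p = 0.118) and 0.34, and PYK10 had -0.09. RCA and the antenna protein genes LHCB4.1 and LHCB4.2 had differences of -0.15, -0.15 and -0.20. The summed signal of the 3 root markers was 3868 and 3181 on the wild-type arrays and 2838 and 3894 on the flc-3 arrays, and that of the 3 green tissue markers was 8320 and 8220 against 6650 and 8170. The groups overlapped in the first sum, which is mostly PYK10, at 3780 of 3868 on wild type replicate 1. Both flc-3 values of the second lay below both wild-type values, but 8170 stood close to 8220. Among all tested probe sets, the groups did not overlap in 43%. EXPA7 and EXPA18 each had both flc-3 arrays above both wild-type arrays, as had 20.2% of tested probe sets. The lowest value of each sum, 2838 and 6650, came from flc-3 replicate 1, the array with the high ribosomal signal. The part of organ make-up in the difference of the pair was not tested. The lists of vegetative abscisic acid response genes and of abscisic acid synthesis and receptor genes had no member with a named probe set here. Probe sets without a single locus in the annotation used were not searched for such genes. The response to that hormone was thus not examined here, which does not mean that the arrays cannot measure it.

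The loci around the pair were compared to see whether the difference extended along the chromosome. The 8 nearest loci with a named probe set on either side reached across 25 coding loci before AT2G23110 and 18 after AT2G23120. Of these 16 neighbours 5 were bright enough to be tested, and none passed in limma, with adjusted p of 0.344 or more and 1 of the 5 at an unadjusted p under 0.05. Their differences lay between -0.42 and 0.23, with a median of -0.09.

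On the side of AT2G23110, AT2G23090 had a difference of 0.23 ± 0.11 (SE), from 529 and 554 to 601 and 675. AT2G23070 had one of 0.19, from 436 and 418 to 491 and 486. AT2G23100, the next locus to AT2G23110, was dim, at 14.3 and 18.2 without the mutation and 12 and 15 with it. No rise like that of AT2G23110 was thus seen in the bright or dim neighbours on that side. AT2G22900 further out had a difference of -0.09.

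On the side of AT2G23120, AT2G23200 had a difference of -0.20, and AT2G23270 had -0.42, the 1 neighbour at an unadjusted p under 0.05. GH3.3, which encodes an enzyme that joins auxin to amino acids, was dim, at 39.7 and 20.3 on the wild-type arrays and 28.1 and 27.9 on the flc-3 arrays. UGT84B1 and UGT84B2, glucosyltransferase genes, gave signals of at most 2.53. Loci without a named probe set, among them those directly after AT2G23120, were not placed.

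**Figure D4:**
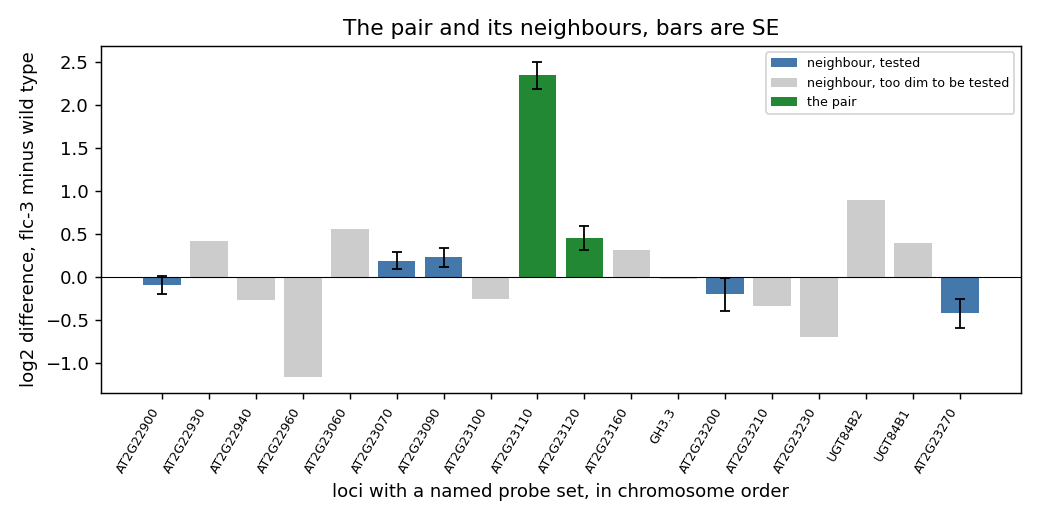
Log2 difference between flc-3 and wild type for the pair and the 8 nearest loci with a named probe set on either side, in chromosome order. Error bars are limma SE, and grey bars are loci too dim to be tested. The 5 tested neighbours lie between -0.42 and 0.23, and the pair stands at 2.34 and 0.45.

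The loci whose profile over the 4 arrays was most like that of each gene were found by the root mean square distance between log2(signal + 1) values, each centred on its own mean, over 7272 other probe sets with a locus. With 4 arrays and 2 genotypes, such a profile is mostly the difference between the genotypes, so likeness is a description and says nothing of shared function. The distance between AT2G23110 and AT2G23120 was 0.95. Of the 7272 probe sets, 214 lay nearer to AT2G23110 than AT2G23120 did, and 7250 lay nearer to AT2G23120 than AT2G23110 did.

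The 8 loci nearest to AT2G23110 lay at distances of 0.09 to 0.142 and had differences of 2.17 to 2.59. The nearest was AT1G48660, which went from 17.2 and 12.9 to 94 and 85.1. Of the others, AT4G36600, LEA4-5 and AtLEA4-1 are LEA genes and AT4G36700 is a seed cupin gene. ICL, the isocitrate lyase that seedlings use to turn stored oil into sugar, went from 477 and 356 to 2110 and 2490. AT1G27461 and AT1G15330 completed the set. So 4 of the 8 stood in the LEA or seed storage lists, which hold genes chosen with this contrast known. AT1G48660, and AT1G27461 at 30.2 and 24.9 in the wild type, passed the filter on dim probe sets through their flc-3 signals.

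The 8 loci nearest to AT2G23120 lay at distances of 0.026 to 0.049 and had differences of 0.37 to 0.50. The nearest, AT4G25780, went from 81.1 and 64.1 to 102 and 90.3, and AT5G11090 from 468 and 386 to 601 and 555. Both had, like AT2G23120, the lower of the wild-type signals in replicate 2, which follows from choosing loci by these same values. The others were AT3G22570, AT1G68140, AT4G36750, AT2G16890, AT5G14440 and AT3G59350. None of the 8 is a LEA gene of the list used here.

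**Figure D5:**
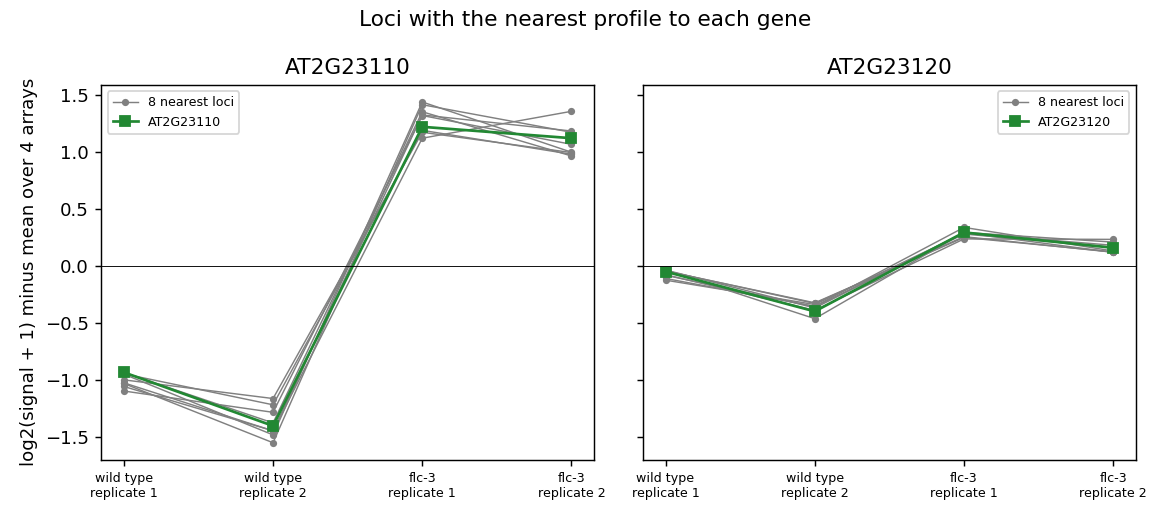
Log2(signal + 1) minus its mean over 4 arrays for AT2G23110 and AT2G23120 (green squares) and the 8 loci nearest to each (grey), with lines joining the values of 1 locus. The loci in the left panel differ between genotypes by 2.17 to 2.59 and those in the right panel by 0.37 to 0.50.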

How the data were processed

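The deposited values were signal intensities on a linear scale, 1 per probe set and array, made by the authors with MAS5 per the submitters' processing notes, with the version not given in the sources used here. The mean of each array after trimming 2% at each end was 100.01, so the deposited scaling was kept. Of 22810 probe sets 64 controls were left out, and a platform annotation with a TAIR10.1 gene table gave a single locus to 13436. No coordinates or sequences are printed, and promoter motifs were not analysed here. Probe sets below the 40th percentile of mean signal over all 4 arrays were left out, leaving 13648. Genotypes were compared, 2-sided, in R 4.3.3 with limma 3.58.1 (eBayes with an intensity trend) on log2(signal + 1), with Benjamini-Hochberg adjustment over all tested probe sets. Each gene was represented by its brightest probe set. On simulated data with 200 of 13648 probe sets changed 4-fold, 10 runs recovered 100% with 4.71% false calls. These runs do not show how often smaller changes, such as that of AT2G23120, would be recovered. Alternatives were 3 normalizations, pseudocounts of 16 and 0.1, 2 filters, 2 variance models, a replicate block and each array left out. Lists came from general knowledge, and the members and lists were chosen with earlier results of these data known. Named genes followed a rule: the pair, AT2G33690, the extremes and some further calls of each LEA group, the 8 nearest named loci on either side, called genes or the 2 lowest p of other lists, and the 8 nearest profiles. COR15A, COR15B, PYK10, RCA and AT1G03890 were named after their values were seen. COR47 and LTI30 also fall outside that rule.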

Additional observations from a re-analysis of the deposited data

Results flagged for a closer look

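A control for 25S ribosomal RNA, used in none of the comparisons, gave 1426 on the array flc-3 replicate 1, while the wild-type arrays gave 134.6 and 47.58 and flc-3 replicate 2 gave 45.67. On that array AT2G23110 read 264 and AT2G23120 read 708, against 247 and 644 on the other flc-3 array.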

How the results depend on the processing

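The direction of both genes held in all alternatives run. With a pseudocount of 16 the log2 difference of AT2G23110 was 2.04 and its excess over AT2G23120 was 1.60, since that pseudocount shrinks dim signals. Leaving out 1 array gave 2.10 to 2.57 for AT2G23110, 0.28 to 0.63 for AT2G23120 and 1.83 to 1.95 for the excess. The count of called probe sets was 121 with no filter and 146 to 374 with 1 array left out, the lowest without flc-3 replicate 1 and the highest without wild type replicate 1, and 14 to 17 LEA genes outside the pair passed. Over all tested probe sets, replicate differences of the genotypes correlated at 0.09. This value cannot tell whether arrays of the same number shared a culture, and the labels do not say. With the replicate block, 780 probe sets passed, AT2G23120 among them, and the differences of the pair stayed at 2.34 and 0.45. In that fit, with differences as before, COR15A (limma adjusted p = 8.39e-11), M17 (7.39e-10), LTI30 (0.0486) and the root marker EXPA7 (0.00771) passed as well, and 19 LEA genes outside the pair in all. Detection calls were not used here, and the signal of AT2G33690 was too dim to be read.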
